A study of Mus musculus with 3 samples.

Results

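In RM1-MXRA7 cells, 139 array probes read at most 0.5 times their RM1-VE signal on each of 3 arrays while both channels carried signal. They stand for 128 of the 30342 genes, clones and accessions that the array names, 115 of them with a gene name and 13 known only by a clone, an accession or a predicted-gene name. The rule asked that the processed green signal be at most 0.5 times the processed red signal on all 3 arrays. It also asked that the mean spot signal exceed 2 times the local background in each channel on all 3 arrays. Among 21240 probes that met the signal condition, out of 39429 distinct probes, the ratio condition picked 0.654%. The same condition turned round, a ratio of at least 2 on all 3 arrays, picked 59 probes, or 0.278%. The members were chosen by these measured ratios and signals, so their levels and ratios are described below without a test. A lower RM1-MXRA7 value on every array follows from the rule and is not a result.

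RM1 cells are an established line of mouse prostate cancer. RM1-MXRA7 is the line transfected with MXRA7, a gene named for matrix remodelling, and RM1-VE is the line transfected with the empty vehicle vector. Total RNA of both lines was taken in exponential growth on day 2, from cultures with 10% serum and 400 μg/mL of the selection drug G418. Each of the 3 arrays held both lines, with RM1-MXRA7 in Cy3 (green) and RM1-VE in Cy5 (red). No array had the dyes swapped, and whether a ratio reflects the dye or the line cannot be told apart for any probe. The labels do not say whether RM1-MXRA7 is a clone or a pool, whether the replicates were separate cultures, or from which species the MXRA7 construct came. The p-values given for other genes therefore measure only the spread between these 3 arrays.

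The transfected gene was looked at first. The brighter Mxra7 probe (chr11:116673251-116673310, mm9) read 1186, 1091 and 898 in RM1-MXRA7, against 1173, 1139 and 934 in RM1-VE. Its mean log2 ratio was -0.034 ± 0.043 (SD, n = 3; limma adjusted p = 0.702). The dimmer probe (chr11:116665685-116665744) read 48.9, 62.4 and 73.2 in RM1-MXRA7 and 39.9, 54.3 and 70.6 in RM1-VE, a log2 ratio of 0.18 ± 0.12 (adjusted p = 0.118 in the same limma fit). Neither probe passed the test, and the brighter one had a log2 ratio of 0.31 after another background correction. These data thus do not show the transfected gene higher in the library labelled RM1-MXRA7, and every direction below rests on the dye labels.

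Several of the processes met below are well known. Interferons switch on antiviral genes, among them the 2′-5′ oligoadenylate synthetases, which sense double-stranded RNA and activate a nuclease that cuts RNA. Cyclic nucleotides carry hormone signals inside cells until phosphodiesterases break them down, and anchoring proteins hold the cyclic AMP-dependent kinase in place. LIM domains are zinc-binding modules through which small proteins join others, often on the actin cytoskeleton. Some genes of the growth-limiting kind are imprinted, which means that only the copy from 1 parent is read.

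Sequences are shown for the member with the lowest ratio and for antiviral genes that share a locus. The Magohb probe (chr6:131234716-131235689, minus strand, mm9) has 60 bases that span 974 bases of the genome, so it crosses a splice junction, as do 6 of the 139 member probes. The Oas1a probe shown lies at chr5:121348338-121348397 (minus strand, mm9). Both are read 5′ to 3′ as printed in the array files.
Magohb probe: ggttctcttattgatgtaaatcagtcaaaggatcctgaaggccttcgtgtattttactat
Oas1a probe: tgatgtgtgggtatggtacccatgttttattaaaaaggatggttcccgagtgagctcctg

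The promoter windows of Oas1a (chr5:120907476-120907775, minus strand) and Oas1f (chr5:120847117-120847416, plus strand) follow, from RefSeq on GRCm38.p6. Each holds 250 bases before to 50 bases after the start. Capitals mark matches to GAAA, any 2 bases and GAAA again, the core of the interferon-stimulated response element, searched on both strands.
Oas1a promoter: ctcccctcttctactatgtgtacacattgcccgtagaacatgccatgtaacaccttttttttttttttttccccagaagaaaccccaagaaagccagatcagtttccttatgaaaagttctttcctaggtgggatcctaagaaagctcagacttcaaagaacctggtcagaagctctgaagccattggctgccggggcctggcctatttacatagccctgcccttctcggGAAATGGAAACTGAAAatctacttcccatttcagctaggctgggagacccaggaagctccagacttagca
Oas1f promoter: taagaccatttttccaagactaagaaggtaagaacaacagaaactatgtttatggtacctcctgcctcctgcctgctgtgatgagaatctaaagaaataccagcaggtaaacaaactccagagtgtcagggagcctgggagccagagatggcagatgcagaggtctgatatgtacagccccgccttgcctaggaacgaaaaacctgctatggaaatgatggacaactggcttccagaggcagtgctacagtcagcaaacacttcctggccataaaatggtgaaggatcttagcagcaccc

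In the Oas1a window 2 overlapping matches cover bases 231 to 246, just before the start, and these letters are not in the Oas1f window. RefSeq windows were matched for 82 member genes, and 4 windows, or 3.74%, held the core. The other windows with the core belong to Plekha4, Scube3 and Neurog2. The same core stood in 2.98% of 13242 windows of genes with signal on the array. A match is a description of the letters and not of a bound site. The median observed over expected ratio of CpG pairs was 0.487 in the member windows. It was 0.734 for the genes with signal and 0.384 for all RefSeq genes. Probes with signal were brighter as a set than the members, and the part of signal level in this difference was not tested. The median GC content was 59.7% in member windows and 60% in those of genes with signal. The letters TATAAA, on either strand, stood in 13.1% of the member windows, against 7.76% of the windows of genes with signal and 13.6% of all RefSeq windows.

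The members were dim as a set, which bears on how their ratios can be read. Their median processed signal was 37.2, 36.5 and 43.4 on arrays 1 to 3 in RM1-MXRA7, against 161, 166 and 171 in RM1-VE. All probes with signal had medians between 450.4 and 466 in both lines. The median log2 ratio of the members was -1.69, with a range of -5.84 to -1.04, and their median SD between arrays was 0.22, against 0.11 for all probes with signal. The scanner software's own flag for a spot well above background was stricter than the rule. By that flag 97 of the 139 members were above background in RM1-MXRA7 on all 3 arrays, 17 on 1 or 2 arrays and 25 on none, while 133 were above it in RM1-VE on all 3. The description of the set as expressed in both lines therefore holds by this flag for 97 probes (91 genes), and for 25 probes the RM1-MXRA7 level is not well above background. For 20 of those 25, RM1-VE was above background on all 3 arrays and a bound on the fold was set. It is given below with the words at least, and left out for probes without a gene name. The other 5 have no bound, because RM1-VE was also above background on fewer than 3 arrays: they are probes of Pex5l, Mcf2l, Bst1, Csf2rb2 and 5830468F06Rik. Such a bound compares means of log2 channel values after normexp, loess and Aquantile scaling, with the RM1-MXRA7 value set to the dimmest signal well above background on that array or to the probe's own value if higher. In 16 of the 20 it equals the fold measured after normexp and loess, so it is a bound under that processing alone. With a surface over array row and column also removed, 8 of the 20 had a fold under the bound, down to 0.93 times it. Without a dye swap the bounds are open to dye bias.

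**Figure D1:**
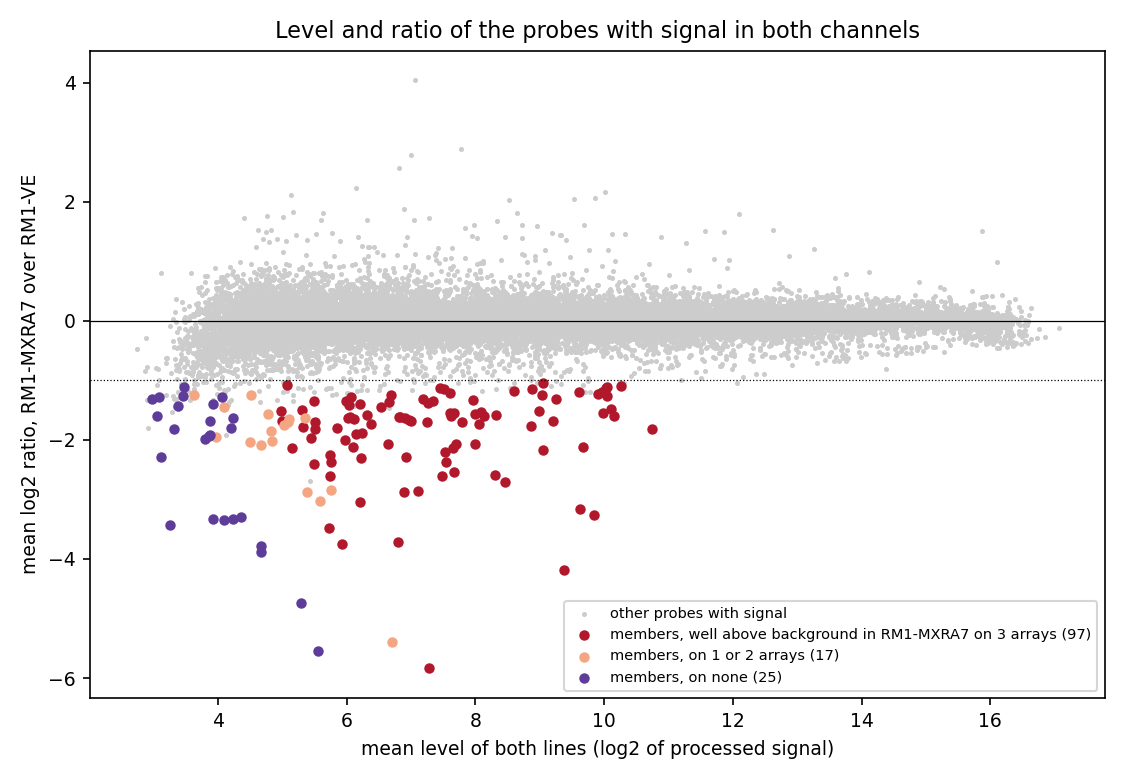
Mean log2 ratio of RM1-MXRA7 over RM1-VE (vertical axis) against the mean log2 processed signal of both lines (horizontal axis) for 21240 probes with signal. Grey points are other probes, and coloured points are the 139 members by the number of arrays on which RM1-MXRA7 was well above background: 97 on 3 arrays, 17 on 1 or 2 and 25 on none. The members above background on none sit at the dim end, and the dotted line marks a log2 ratio of -1.

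The lowest ratio of all members was that of Magohb, which encodes a core subunit of the exon junction complex, the protein mark left on spliced messages. Magohb read 25, 17.1 and 20.3 in RM1-MXRA7, well above background on each array, against 1462, 1125 and 993 in RM1-VE. It was 57.2-fold lower on average, with a mean log2 ratio of -5.84 ± 0.22 (SD, n = 3). After normexp and loess the same ratio was -4.48, or 22.3-fold lower. Its near-identical paralogue Magoh, whose probe shares at most 11 bases in a row with the Magohb probe, read 10054, 8929.5 and 7949 in RM1-MXRA7 and 9444, 7786 and 7122 in RM1-VE, a log2 ratio of 0.15 ± 0.05 (SD, n = 3). The 2 paralogues thus had different ratios on the same arrays, and the Magoh probe was much brighter, though levels of different probes cannot be compared. Of 18 other measured genes of the exon junction complex and message decay, 2 passed the limma test as lower and 16 did not pass, with a median log2 ratio of 0.036. Across all 16826 genes tested that way, each by its brightest probe, 12.7% passed as lower and 11.3% as higher, with a median of 7.9e-05. The list counts are to be read beside these shares, which include the members, while counts of other genes leave them out. The 2 lower genes were Smg1, a kinase of message decay, at -0.33 ± 0.12 (limma adjusted p = 0.0276), and Pnn, a protein of nuclear speckles, at -0.27 ± 0.10 (limma adjusted p = 0.0396).

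The other members of RNA biology had smaller ratios and were well above background in both lines on all arrays. Tdrd9, a helicase of the germline piRNA pathway, read 115, 96.1 and 79.9 in RM1-MXRA7 and 393, 424 and 456 in RM1-VE (log2 ratio -2.14 ± 0.37, SD, n = 3). Nxf7, of the nuclear RNA export factor family, read 102, 93.1 and 109 in RM1-MXRA7 and 447, 407 and 423 in RM1-VE (-2.07 ± 0.10). Tent5b, of a family of poly(A) polymerases, stood at -1.55 ± 0.06 on the log2 scale. Of these, Tdrd9 varied most between arrays and Tent5b least.

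**Figure D2:**
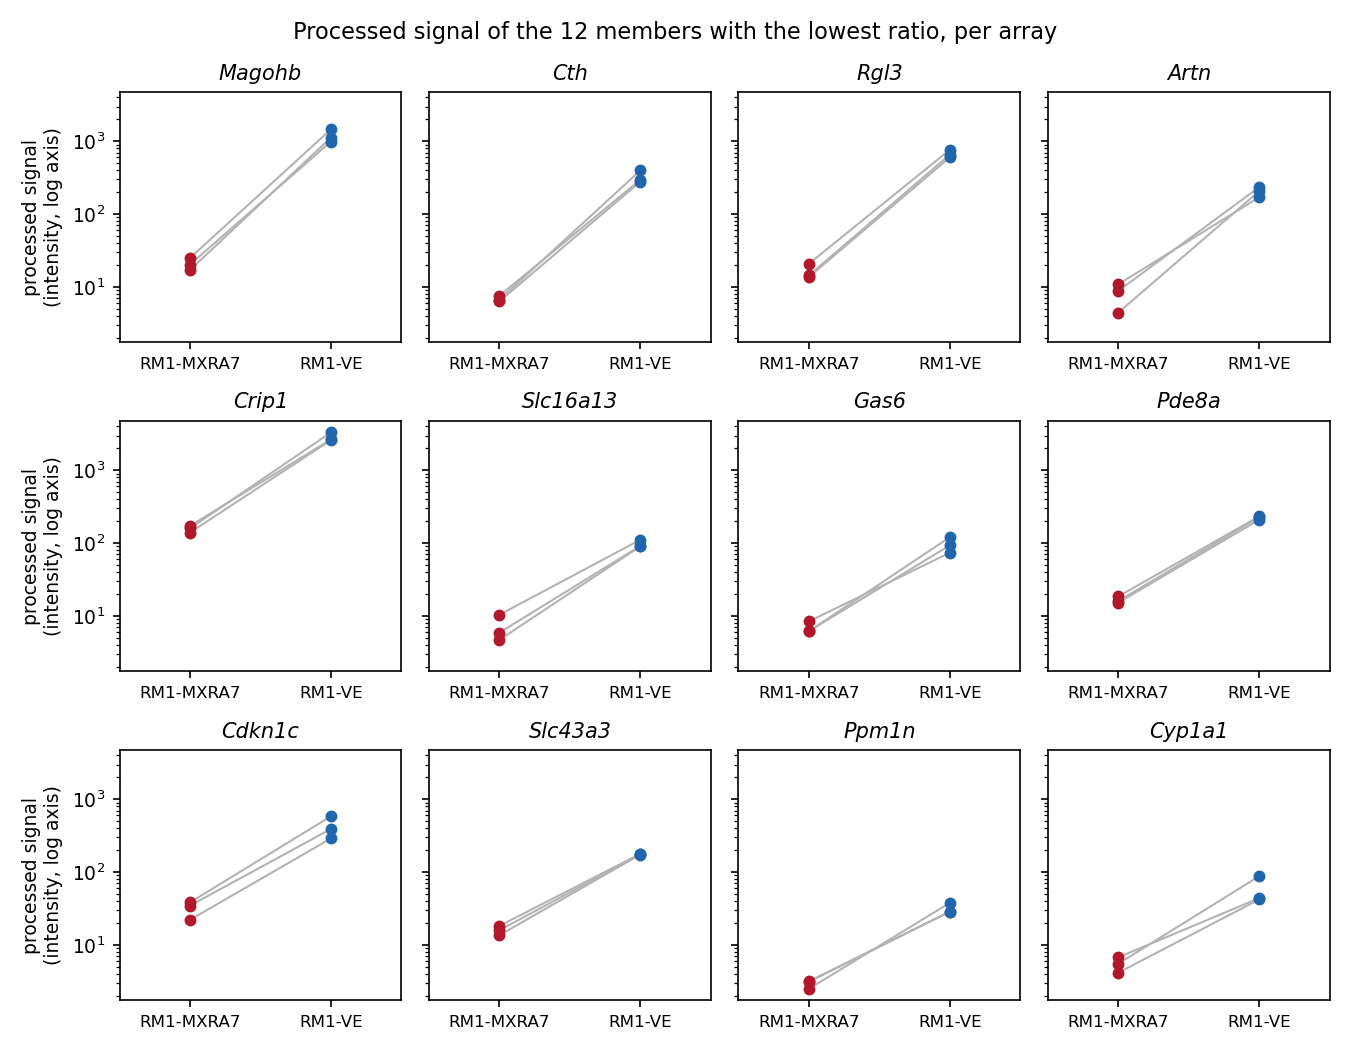
Processed signal (intensity, log axis) of the 12 member genes with the lowest mean ratio, with RM1-MXRA7 at the left and RM1-VE at the right of each panel. Each point is 1 array and a line joins the lines' values on 1 array. No RM1-MXRA7 value reaches an RM1-VE value in any panel, from Magohb (25, 17.1 and 20.3, against 1462, 1125 and 993) to Cyp1a1 (6.77, 5.54 and 4.17, against 44.0, 88.1 and 42.2).

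Interferon-related, antiviral and immune genes gave 13 members. The oligoadenylate synthetase Oas1a had both of its member probes well above background on all arrays. Its brighter probe read 209, 279 and 316 in RM1-MXRA7, against 2159, 2609.7 and 2326 in RM1-VE (log2 ratio -3.16 ± 0.25, SD, n = 3, or 8.91-fold lower). The probe printed above read 37.6, 53.4 and 66.1 in RM1-MXRA7 and 301, 423 and 397 in RM1-VE (-2.86 ± 0.23). The probes lie at different places in the gene and gave like ratios. Oas1f, a family member of the same locus, read 114, 139 and 164 in RM1-MXRA7 and 780.3, 994 and 951 in RM1-VE (-2.71 ± 0.16). Oas2, the larger synthetase of the same locus, was dimmer, with 19.1, 19.8 and 19.7 in RM1-MXRA7 and 102, 126 and 85.9 in RM1-VE (-2.40 ± 0.27). The longest run of bases shared between the Oas1a and Oas1f probes was 14, and 6 between those of Oas1a and Oas2, of 60 bases each.

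The remaining genes of the antiviral and immune group had ratios closer to the threshold. Sp110, a nuclear body protein that interferon induces, read 72.5, 75 and 101 in RM1-MXRA7 and 403, 459 and 417.5 in RM1-VE (log2 ratio -2.38 ± 0.30). Its relative Sp140 stood at -1.68 ± 0.37. Crtam, an adhesion protein known from cytotoxic T cells, read 201, 273 and 286 in RM1-MXRA7 and 1143, 1140.5 and 1097 in RM1-VE (-2.17 ± 0.30). H2-DMb1, a chain of the chaperone that loads peptides onto MHC class II, had -1.98 ± 0.24, and Casp1, the protease of inflammasomes, had -1.69 ± 0.34. Csprs, a component of Sp100-related sequence, stood at -1.65 ± 0.26 and was above background in RM1-MXRA7 on 2 arrays. The others were Gvin1, an interferon-inducible very large GTPase (-1.65 ± 0.39), Padi4, which turns arginine in proteins to citrulline (-1.58 ± 0.07 on its brighter probe), Lcn2, which binds bacterial siderophores (-1.15 ± 0.15), and Bst1, which has no bound. The dimmer Padi4 member probe was at least 1.31-fold lower. Other probes of Sp110 and Sp140, outside the set, stood at -0.53, -0.47, -0.49 and -0.32, closer to 0 than the member probes. The Sp110 probe at -0.53 was far brighter, with 32838.5, 32978 and 33722 in RM1-MXRA7 and 51120, 49070.5 and 43871 in RM1-VE. The Sp140 probe at -0.32 was brighter than the Sp140 member probe, and those at -0.47 and -0.49 were dimmer than their member probes. Other Csprs probes, each brighter than the Csprs member probe, stood at -0.54 and -0.48. Sp110, Sp140, Csprs and Gvin1 belong to families with near-identical copies in the mouse genome, so their ratios cannot be assigned to 1 copy with certainty.

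Other interferon-response genes leaned the same way. Of 58 measured genes of the interferon list that are not members, 21 (36.2%) passed limma as lower and 3 as higher, and their median log2 ratio was -0.23. Oasl1, an oligoadenylate synthetase-like gene, lay just outside the rule with 545, 670.0 and 614 in RM1-MXRA7 and 1148, 1325 and 1213 in RM1-VE (-1.01 ± 0.05, limma adjusted p = 0.000519). Psmb8, a subunit of the immunoproteasome, had -0.90 ± 0.16 (limma adjusted p = 0.00199), and Trim25, a ubiquitin ligase of RNA sensing, had -0.67 ± 0.10 (limma adjusted p = 0.00286). Against these, Usp18, which restrains interferon signalling, was higher in RM1-MXRA7 at 0.78 ± 0.07 (limma adjusted p = 0.00146). The list was written with earlier results of these data known. Of 6 leukocyte markers, 2 (Cd3e and Itgam) were above background in both lines on all arrays, and the summed signal of the 6 ran from 1423 to 1476 in RM1-MXRA7 and from 1586 to 1773 in RM1-VE. The pan-leukocyte gene Ptprc and the macrophage gene Lyz2 were above background in neither line, and the part of leukocyte markers in these ratios was not tested.

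Signalling genes around cyclic nucleotides, G proteins and small GTPases gave 15 members. Pde8a, a phosphodiesterase specific for cyclic AMP, read 18.6, 16 and 15.3 in RM1-MXRA7, against 234, 228 and 210.1 in RM1-VE (log2 ratio -3.76 ± 0.09, SD, n = 3, or 13.5-fold lower, and 4.77-fold lower after normexp and loess). Pde3b, a phosphodiesterase through which insulin lowers cyclic AMP in fat and liver, read 183, 129 and 90.0 in RM1-MXRA7 and 821, 742 and 757 in RM1-VE (-2.59 ± 0.46). Akap12, which anchors protein kinases A and C, read 38.6, 80.3 and 54.3 in RM1-MXRA7 and 230.3, 336 and 251 in RM1-VE (-2.28 ± 0.26). Of these genes the Pde8a ratio varied least between arrays and the Pde3b ratio most. Akip1, which binds the catalytic subunit of protein kinase A, was bright and even, with 615, 576 and 587 in RM1-MXRA7 and 1773, 1719 and 1711 in RM1-VE (-1.55 ± 0.03).

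Members of the Ras pathway and other small GTPase regulators came next. Rgl3, an exchange factor for Ral that Ras binds, read 14.4, 13.7 and 20.8 in RM1-MXRA7 and 657, 602 and 766 in RM1-VE (log2 ratio -5.39 ± 0.16, and -3.71 after normexp and loess), but it was well above background in RM1-MXRA7 on only 1 array. Arhgap9, a GTPase-activating protein, stood at -2.0 ± 0.43. The phosphatase gene Ppm1n was not well above background in RM1-MXRA7 on any array, where it read 3.13, 2.51 and 3.17, against 28.8, 37.9 and 28.6 in RM1-VE, and it was at least 1.66-fold lower. Gng13, a G protein gamma subunit known from taste and smell, had -1.63 ± 0.53 with RM1-MXRA7 above background on 2 arrays. Tesc, a calcium-binding protein, had -1.60 ± 0.06. Plekha4, Stap2, Rasl11b, Ptpn18 and Rgs11 ran from -1.53 to -1.22, and Mcf2l has no bound. Of these Rgs11 shortens G protein signals, and its ratio was -1.22 ± 0.11. Among 42 other measured genes of cyclic nucleotide signalling, 14 (33.3%) passed limma as lower and 8 (19%) as higher, with a median log2 ratio of -0.0099. The phosphodiesterases were not uniform, since Pde9a was higher in RM1-MXRA7 (0.77 ± 0.12, limma adjusted p = 0.00242) and Pde5a lower (-0.40 ± 0.07, limma adjusted p = 0.0107).

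LIM domain, cytoskeletal and motor genes gave 10 members, among them 4 LIM genes. Crip1, a small LIM protein, read 159, 172 and 139.6 in RM1-MXRA7, against 3314, 2651 and 2599.8 in RM1-VE (log2 ratio -4.18 ± 0.22, SD, n = 3, or 18.1-fold lower). Pdlim4, which joins a PDZ and a LIM domain and binds actinin, read 277, 259 and 366 in RM1-MXRA7 and 2649.6, 2875 and 3024 in RM1-VE (-3.26 ± 0.21, or 9.57-fold lower). Both were bright in RM1-VE and also clearly above background in RM1-MXRA7. Lmo1, a LIM-only cofactor of transcription and a known oncogene in T cell leukaemia, read 99.6, 68.8 and 56.5 in RM1-MXRA7 and 477, 423 and 430.2 in RM1-VE (-2.60 ± 0.33). Crip2, the neighbour of Crip1, read 119, 119.8 and 103 in RM1-MXRA7 and 302, 363 and 366 in RM1-VE (-1.59 ± 0.24). Of 35 other LIM genes measured, 1 (2.86%) passed limma as lower and 4 (11.4%) as higher, with a median log2 ratio of 0.042. That count leaves out the 4 members, which were chosen as low. With them, 5 of 39 LIM genes passed as lower and 4 as higher. The lower gene among the 35 was Isl2, a homeobox gene with LIM domains, at -0.77 ± 0.19 (limma adjusted p = 0.00441). Zyxin (Zyx), a protein of focal adhesions, was higher at 0.24 ± 0.02 (limma adjusted p = 0.0356).

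Outside the LIM genes, Klc3, a kinesin light chain, read 29.5, 21.7 and 12.9 in RM1-MXRA7 and 164, 124 and 152 in RM1-VE (log2 ratio -2.85 ± 0.62). Klc3 was above background in RM1-MXRA7 on 2 arrays. Shroom2, an actin-binding regulator of cell shape, was not well above background in RM1-MXRA7, with 7.66, 6.0 and 6.11 against 60.5, 58.3 and 76.6 in RM1-VE, and was at least 2.02-fold lower. Tnnt1, the slow skeletal troponin T, had -1.90 ± 0.11, and Espnl, a relative of the actin bundler espin, had -1.57 ± 0.06. Etl4 and Krt27, a keratin of the hair root sheath, both stood at -1.25, and Krt27 was above background in RM1-MXRA7 on 2 arrays.

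Metabolic enzymes gave 15 member genes that spread over many pathways. Cth, which makes cysteine from cystathionine, read 6.68, 6.36 and 7.58 in RM1-MXRA7, against 399, 279.6 and 297 in RM1-VE. It was not well above background in RM1-MXRA7 on any array, and it was at least 8.86-fold lower after normexp and loess and 8.24-fold lower with the surface removed as well. A second Cth probe, outside the set, gave 5.05, 3.99 and 3.63 in RM1-MXRA7 and 325, 245 and 229.8 in RM1-VE, again above background in RM1-VE alone. Both probes of the gene thus had RM1-VE signal and little or none in RM1-MXRA7. Oplah, which opens 5-oxoproline in the glutathione cycle, read 76.3, 92.0 and 86.0 in RM1-MXRA7 and 423, 515 and 541 in RM1-VE (log2 ratio -2.54 ± 0.10). Of 47 other measured genes of sulphur amino acid and glutathione metabolism, 12 (25.5%) passed limma as lower and 7 (14.9%) as higher. Their median was 0.014. Ggh had the smallest limma adjusted p of them (4.38e-05) but failed the signal condition. It read 3.26, 2.13 and 3.53 in RM1-MXRA7 and 518, 595 and 468 in RM1-VE. Cbs, the enzyme one step before Cth, was lower at -1.07 ± 0.14 (limma adjusted p = 0.000959), and Gstt2, a glutathione transferase, was higher at 1.24 ± 0.13 (limma adjusted p = 0.000496).

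Detoxifying and lipid enzymes made up much of the rest. Cyp1a1, the cytochrome P450 that the aryl hydrocarbon receptor induces, read 6.77, 5.54 and 4.17 in RM1-MXRA7 and 44.0, 88.1 and 42.2 in RM1-VE and was at least 2.06-fold lower. Cbr3, a carbonyl reductase, was among the brighter members, with 461, 369 and 355 in RM1-MXRA7 and 1816, 1685 and 1612 in RM1-VE (log2 ratio -2.12 ± 0.12). Nnmt, which methylates nicotinamide, read 128, 105 and 141 in RM1-MXRA7 and 508, 468 and 597 in RM1-VE (-2.08 ± 0.09). Cyp1a1 was dim in both lines, while Cbr3 and Nnmt were well above background in both. Bdh1, an enzyme of ketone bodies, had -2.88 ± 0.48 and was above background in RM1-MXRA7 on 2 arrays, and Cryl1, a sugar dehydrogenase, had -2.37 ± 0.08. Acp5, the tartrate-resistant acid phosphatase of osteoclasts, varied between arrays within RM1-MXRA7, with 246, 101 and 74.2 there and 532, 309.6 and 391 in RM1-VE (-1.71 ± 0.65). The remaining enzymes ran from -1.66 to -1.11: Soat2, Hacd4, Ydjc, Elovl7, Ass1, Qpct and Paox. Ass1, which joins citrulline and aspartate in arginine synthesis, had 2 member probes at -1.22 ± 0.19 and -1.14 ± 0.13. The Paox probes share 54 bases, and the array files place them on chromosomes 1 and 7, so they do not measure 2 things.

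Secreted ligands and receptors gave 14 member genes. The ligand artemin (Artn), of the GDNF family, read 4.46, 8.86 and 10.9 in RM1-MXRA7, against 207, 235 and 171 in RM1-VE, and was at least 5.36-fold lower after normexp and loess (5.18-fold with the surface removed). Gas6, the ligand of the Axl receptor family, read 6.19, 6.18 and 8.43 in RM1-MXRA7 and 93.5, 121 and 73.9 in RM1-VE, at least 3.02-fold lower. Neither was well above background in RM1-MXRA7 on any array. Bmp6, a bone morphogenetic protein, read 33.6, 26.2 and 33.6 in RM1-MXRA7 and 101, 89.5 and 141 in RM1-VE (log2 ratio -1.81 ± 0.25). Mst1, the macrophage-stimulating protein and ligand of the receptor Mst1r, read 269, 247 and 240.5 in RM1-MXRA7 and 870.1, 885 and 808 in RM1-VE (-1.76 ± 0.07). Its second member probe gave -1.68 ± 0.15 but shares 29 bases with the first. Sema3b, a secreted semaphorin, had -1.50 ± 0.21, Scube3 had -1.57 ± 0.19, and Pdgfb, a chain of platelet-derived growth factor, had -1.35 ± 0.10.

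Among the receptors, Gfra2, which binds neurturin of the GDNF family, read 8.26, 11 and 20.4 in RM1-MXRA7 and 36.3, 50.9 and 77.8 in RM1-VE (log2 ratio -2.09 ± 0.14), above background in RM1-MXRA7 on 1 array. Adgrg3, an adhesion G protein-coupled receptor, read 194, 137 and 116 in RM1-MXRA7 and 507, 399 and 568 in RM1-VE (-1.74 ± 0.49). Sort1, the sorting receptor sortilin, had -1.68 ± 0.75 on the member probe and -0.07 ± 0.09 on another probe with signal, so the probes of that gene disagreed. Epor, the erythropoietin receptor, had -1.36 ± 0.23. The last members of the group were Fndc4 (-1.76 ± 0.31), the BMP antagonist Nbl1 (-1.32 ± 0.26) and Csf2rb2, which has no bound. Fndc4 was above background in RM1-MXRA7 on 2 arrays. Of 56 other measured growth factor and receptor genes, 5 (8.93%) passed limma as lower and 14 (25%) as higher, with a median of 0.086. Ednra, the endothelin A receptor, was higher in RM1-MXRA7 with 246, 278 and 302, against 40.8, 47.9 and 51.6 in RM1-VE (2.56 ± 0.03, limma adjusted p = 2.47e-05).

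Matrix, adhesion and protease-control genes gave 8 member genes. Serpinf1, the secreted serpin known as PEDF that limits vessel growth, read 132, 76.0 and 63.1 in RM1-MXRA7, against 608, 371 and 271 in RM1-VE (log2 ratio -2.20 ± 0.09, SD, n = 3). Col1a1, the main chain of type I collagen, was the brightest of this group, with 894, 974 and 872 in RM1-MXRA7 and 3544, 3416 and 2773 in RM1-VE (-1.82 ± 0.16, or 3.54-fold lower). Cxadr, a junction protein and coxsackievirus receptor, read 344, 286 and 279 in RM1-MXRA7 and 949, 837 and 797 in RM1-VE (-1.51 ± 0.04). Serpinf1 was highest on array 1 in both lines, and its ratio was even across arrays. Spint1, an inhibitor of epithelial serine proteases, was at least 1.34-fold lower on the member probe, which was above background in RM1-VE alone. Serpinb1a (-1.63 ± 0.40), Lgalsl (-1.39 ± 0.19) and the carboxypeptidase Cpm (-1.24 ± 0.08) followed, and Stfa2l1 was at least 1.24-fold lower.

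Collagens other than Col1a1 mostly did not share its direction. Of 20 others measured, 3 passed limma as lower and 10 (50%) as higher, with a median log2 ratio of 0.30. Col3a1, the type III fibrillar chain, was higher in RM1-MXRA7 with 9174, 7120 and 8424, against 2780.1, 2449.7 and 1924 in RM1-VE (1.80 ± 0.30, limma adjusted p = 0.000745). Fibronectin (Fn1) was also higher, at 0.79 ± 0.13 (limma adjusted p = 0.00235). Some genes of the matrix lists had lower ratios than these members but failed the signal condition in RM1-MXRA7. Mmp2, a gelatinase, read 3.58, 4.58 and 8.24 in RM1-MXRA7 and 89.7, 108 and 112 in RM1-VE, and Thbs2, an inhibitor of vessel growth, read 8.35, 18.5 and 15 in RM1-MXRA7 and 67.9, 87.4 and 104 in RM1-VE.

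Growth and cell-cycle control gave 3 members, all well above background in both lines. Cdkn1c, the imprinted inhibitor p57 of cyclin-dependent kinases, read 38.4, 34.7 and 22.2 in RM1-MXRA7, against 585, 391 and 289.9 in RM1-VE (log2 ratio -3.71 ± 0.22, SD, n = 3, or 13.1-fold lower, and 6.95-fold lower after normexp and loess). Phlda2, an imprinted gene that restrains placental growth, read 129, 78.3 and 77.1 in RM1-MXRA7 and 292, 191 and 218 in RM1-VE (-1.32 ± 0.16). Ccnd2, the growth-promoting cyclin D2, read 635, 479 and 464 in RM1-MXRA7 and 1321, 1145 and 1103 in RM1-VE (-1.19 ± 0.11). The set thus held both an inhibitor and an activator of the cell cycle. Of 18 other cyclins and inhibitors measured, 3 (16.7%) passed limma as lower and 2 (11.1%) as higher, near the 12.7% and 11.3% of all genes tested. The inhibitor Cdkn2c was higher at 0.62 ± 0.23 (limma adjusted p = 0.0109). Ccnb2, a mitotic cyclin, was lower at -0.36 ± 0.07 (limma adjusted p = 0.015), but after normexp and loess its log2 ratio was 0.048. Of 22 other imprinted genes measured, 6 (27.3%) passed as lower and 1 as higher, with a median of -0.099. Grb10, an imprinted adaptor of insulin signalling, had -0.84 ± 0.13 (limma adjusted p = 0.00188).

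Transcription and chromatin genes gave 12 members, most of them dim. Nr1h3, the oxysterol receptor LXR alpha, had 2 member probes. The brighter read 12, 19.3 and 43.4 in RM1-MXRA7 and 96.5, 154 and 152 in RM1-VE (log2 ratio -2.60 ± 0.69), and the dimmer was at least 2.47-fold lower. Repin1, a zinc finger protein, read 37.3, 44.9 and 50.5 in RM1-MXRA7 and 286, 341 and 339 in RM1-VE (-2.87 ± 0.11). Elf3, an epithelial ETS factor, read 19.6, 15.9 and 15.8 in RM1-MXRA7 and 71.4, 70.6 and 82.3 in RM1-VE (-2.13 ± 0.26). Tbx18, a T-box factor of heart and ureter, had -1.88 ± 0.07, Scx, the tendon factor scleraxis, -1.63 ± 0.20, and Zfp979 -2.04 ± 0.58 with RM1-MXRA7 above background on 1 array. Tcf24 was at least 1.32-fold lower and Pknox2 at least 1.22-fold lower. Zfp882, Macroh2a3, Zfp518b and Neurog2 ran from -1.45 to -1.25. Zfp882 and Neurog2 were above background in RM1-MXRA7 on 1 array, and Neurog2 in RM1-VE on 2. After normexp and loess, Zfp882 stood at -0.39 and Neurog2 at -0.18. Among 339 other zinc finger genes of the Zfp list, 24 (7.08%) passed limma as lower and 52 (15.3%) as higher.

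Transporters and membrane traffic gave 12 members. Slc43a3, a purine base transporter, read 13.6, 18.3 and 15.9 in RM1-MXRA7, against 175, 179 and 175 in RM1-VE (log2 ratio -3.47 ± 0.19, or 11.1-fold lower, and 4.31-fold lower after normexp and loess). Slc16a13, of the monocarboxylate transporter family, read 5.91, 4.71 and 10.4 in RM1-MXRA7 and 91.6, 90.7 and 111 in RM1-VE and was at least 3.40-fold lower after normexp and loess (3.21-fold with the surface removed). Another Slc16a13 probe with signal had -0.74 ± 0.14. The direction was shared by both probes and the size was not. Slc26a10 was at least 1.85-fold lower and Osbp2, an oxysterol-binding protein, at least 1.44-fold lower. Gulp1, an adaptor for engulfing dead cells, had -1.78 ± 0.33, Cpne8 had -1.70 ± 0.09, and Syngr1, a synaptic vesicle protein, had -1.69 ± 0.20. Snx32, Mbp, Xk and Ocstamp ran from -1.69 to -1.10, and Pex5l has no bound. Cpne8 and Xk were each above background in RM1-MXRA7 on 2 arrays. Solute carriers in general were balanced, with 20 of 218 others lower and 20 higher in the limma fit (9.17% each, against 12.7% and 11.3% of all genes tested).

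Genes outside these groups numbered 9 with a name. Plac9a, a small secreted protein first known from placenta, read 24.8, 25.4 and 27.0 in RM1-MXRA7, against 177, 233 and 234 in RM1-VE (log2 ratio -3.05 ± 0.19, or 8.27-fold lower, and 4.57-fold lower after normexp and loess). Fam131a had -3.03 ± 0.54 with RM1-MXRA7 above background on 2 arrays, and Lrrc75b had -1.95 ± 0.76 with 1 such array. Xrra1 was at least 1.3-fold lower. Nacad (-1.61 ± 0.03), Ankrd34a (-1.33 ± 0.23), Nipsnap1 (-1.12 ± 0.11), Ccdc65 (-1.07 ± 0.02) and Miga1 (-1.04 ± 0.01) lay nearest to 0. The 14 probes without a gene name ran from -2.31 to -1.11.

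**Figure D3:**
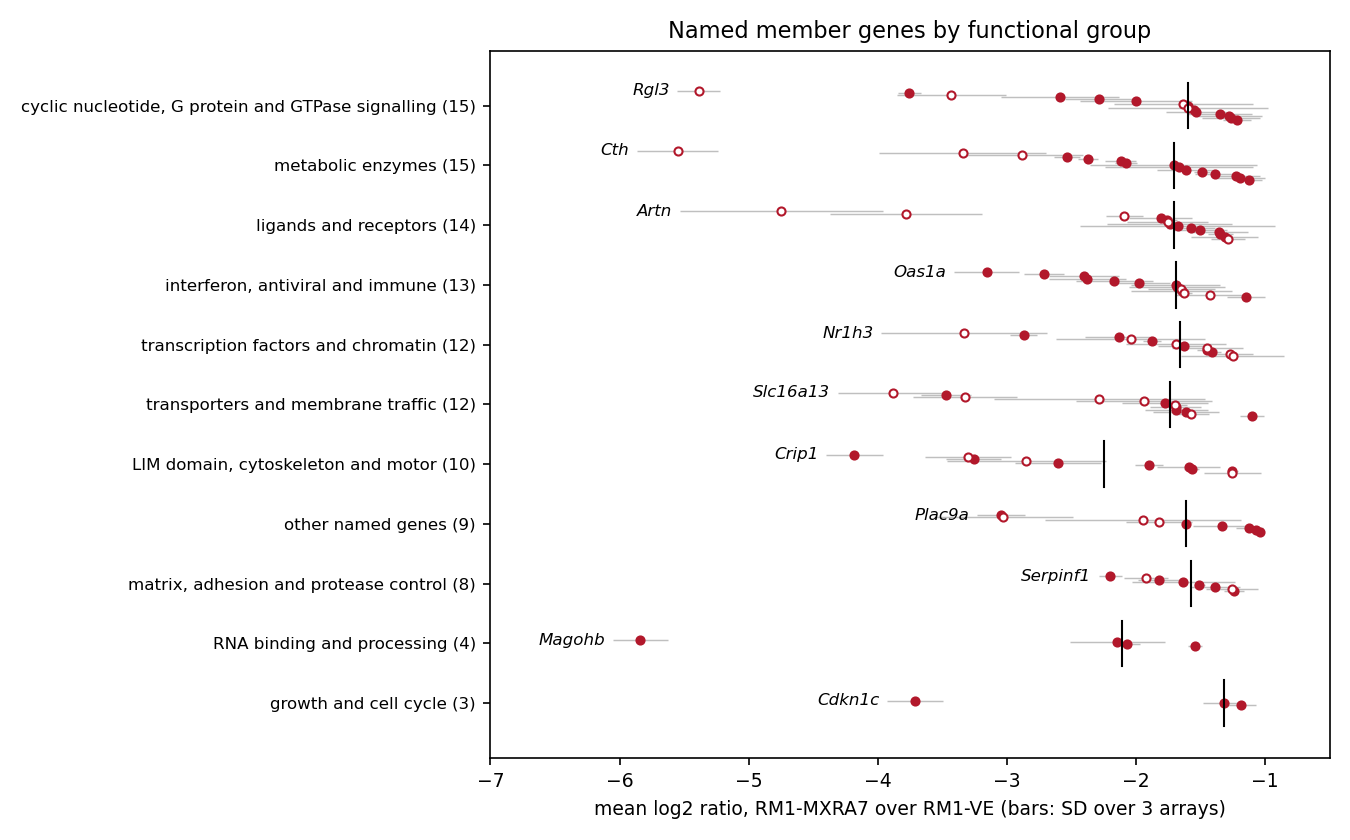
Mean log2 ratio of RM1-MXRA7 over RM1-VE (horizontal axis, bars show the SD over 3 arrays) for the 115 named member genes by functional group, each by its lowest member probe. Filled points were well above background in RM1-MXRA7 on all 3 arrays and open points on fewer, black ticks are group medians, and the lowest gene of each group is named. Medians run from -2.25 for LIM domain, cytoskeleton and motor genes to -1.32 for growth and cell cycle genes.

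Group medians lay between -2.25 and -1.32, a narrow band beside the range of single members. Among the named groups, only matrix, adhesion and protease control held no gene at or below -3. No group was chosen or tested as enriched, since the groups were formed from the members. Just inside the threshold, the highest of the 3 array ratios was 0.4985 for Neurog2, 0.498 for Ptpn18 and 0.497 for Qpct. Just outside it were a probe without a gene name (0.501), A630001G21Rik (0.502) and Oasl1 (0.506).

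Some members lay close together on the genome. Neighbouring member genes with probe starts within 1000000 bases of each other formed 17 clusters, and 35 of 125 placed member genes (28.0%) lay within that distance of another member. Of 16102 other genes with signal, 2956 (18.4%) lay as close to a member. On chromosome 5, Oas2, Oas1f and Oas1a spanned 166.4 kb, and 5 other genes with signal lay between them. Those others, Oas3, Oas1c, Oas1e, Oas1b and C78228, had log2 ratios between -0.30 and 0.18 with a median of -0.059. The brightest Oas1b probe read 9509, 9759 and 10264 in RM1-MXRA7 and 9739, 9985 and 9440 in RM1-VE, a log2 ratio of 0.018 ± 0.089. The lower ratios therefore did not extend to every gene of the locus.

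The closest pair was Crip2 and Crip1 on chromosome 12, whose probes start 8.4 kb apart with no other gene with signal between. On chromosome 7, Cdkn1c and Phlda2 lay 42.7 kb apart in a known imprinted domain. Between them Slc22a18, also imprinted, read 395, 429 and 470.1 in RM1-MXRA7 and 572, 757 and 776 in RM1-VE (-0.69 ± 0.14, limma adjusted p = 0.004). Slc22a18 thus had the same direction as the members on either side of it, whose own direction follows from the rule. On chromosome 9, Epor, Rgl3 and Acp5 lay within 167.8 kb, and 6 other genes between them had ratios from -0.13 to 0.15. The remaining clusters were mostly pairs, among them Sp110 and Sp140 (33.8 kb), Ppm1n and Klc3 (117.7 kb), Pdgfb and Syngr1 (114.7 kb), Oplah and Scx (162.3 kb), and Slc26a10 and Arhgap9 (156.6 kb). Pairs farther apart were Gng13 and Rgs11 (492.3 kb), Sema3b and Mst1 (486.6 kb), Mcf2l and Gas6 (473.8 kb), Lmo1 and Akip1 (573.3 kb), and Ass1 and Lcn2 (864.1 kb). Where other genes with signal lay between the members of those pairs, their median ratios ran from -0.071 to 0.29. In a cluster of 3 members without a gene name on chromosome 1, the 1 gene between them stood at -1.42. In one of Csprs and an unnamed member on an unplaced piece of chromosome 8, the genes between had a median of -0.43.

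By chromosome, the share of genes with signal that were members was 0.786% over the genome. It was highest on chromosomes 9 (1.41%, 12 genes), 15 (1.32%, 9 genes) and 1 (1.21%, 11 genes) and, of the autosomes, lowest on chromosomes 19 (0.184%) and 18 (0.247%), with 1 gene each. Chromosome Y held none of its 5 genes with signal. These counts are small and describe the set only.

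**Figure D4:**
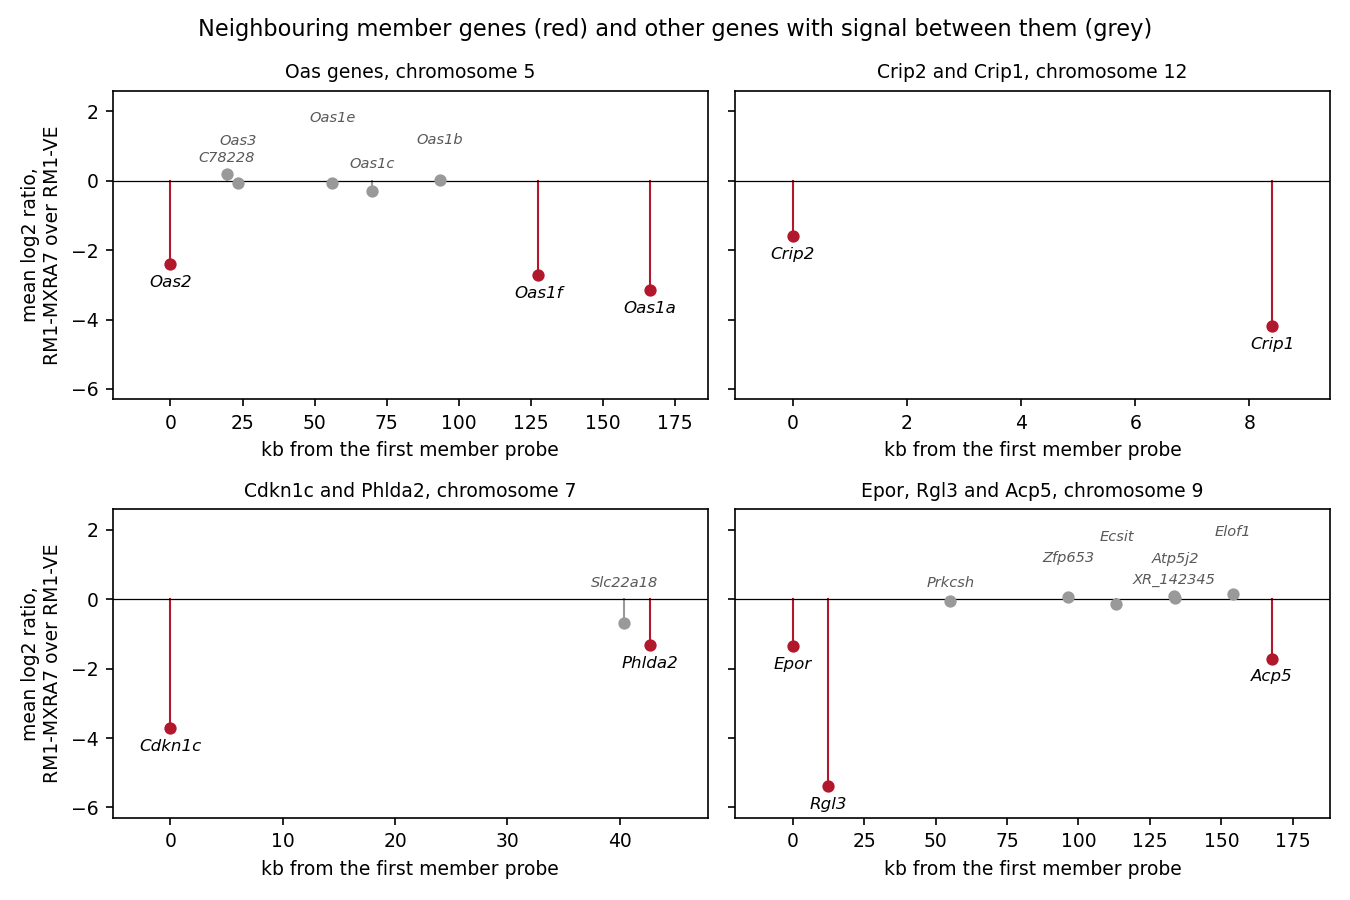
Mean log2 ratio of RM1-MXRA7 over RM1-VE (vertical axis) against the distance in kb from the first member probe for 4 groups of neighbouring members (red) and the other genes with signal between them (grey). Oas3, Oas1c, Oas1e and Oas1b stay near 0 between Oas2 (-2.40), Oas1f (-2.71) and Oas1a (-3.16), while Slc22a18 (-0.69) lies between Cdkn1c (-3.71) and Phlda2 (-1.32).

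Other probes of the member genes gave a reading that the rule had not used, though on the same arrays and RNA. Of the 128 member genes, 11 had 2 member probes and 41 had a further probe outside the set. Of those 56 further probes 15, which belong to 11 genes, met the signal condition. Of the 15, 14 had a log2 ratio below 0 on all 3 arrays, against 30.1% of all probes with signal. The 15 are not independent readings, since Sp110, Sp140, Csprs and Etl4 gave 2 each. Sp110, Sp140, Csprs and Gvin1 also have near-identical copies in the genome. These 15 failed the ratio condition, so that their median of -0.53 lies closer to 0 than the member median follows from the rule. Among them, 2 had a mean of -1 or less (Gvin1 at -1.16 and Etl4 at -1.15). Among the 15, the exception was Mcf2l, whose other probe stood at 0.29 ± 0.24 and above 0 on all 3 arrays. Another 8 further probes failed the signal condition but were well above background in RM1-VE on all arrays. All 8 were below 0 on all 3 arrays, which this choice of probes made nearly certain and which is not a result. In 6 of the 8, among them Cth (-5.98), Bdh1 (-3.40) and Spint1 (-3.11), the mean log2 ratio was lower than that of the gene's member probe. With RM1-MXRA7 so dim, these sizes depended on the background: after normexp and loess they were -2.63, -0.82 and -1.46.

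The ratios also depended on how the background was handled. All 139 members had a log2 ratio below 0 on all 3 arrays after normexp background correction and loess. Their median was then -1.20, 88 kept a mean of -1 or less, and 76 of the 97 well above background in both lines did so. Among the members above background in RM1-MXRA7 on none of the arrays the median moved most, to -0.44 from -1.93 on processed signals. Of all members, 67 moved by more than 1.5-fold, each toward 0, and 25 of these were among the 97. Bright members differed in this. Crip1 was -4.09 and Col1a1 -1.82 after normexp and loess, close to the values above, while Oas1a was -2.63, Crtam -1.69 and Akip1 -1.13. Dimmer members that moved by more than 1.5-fold included Cth (-3.15), the printed Oas1a probe (-1.94), Klc3 (-1.80), Nr1h3 (-1.60), Akap12 (-1.59), Cryl1 (-1.59), Oas2 (-1.39), Elf3 (-1.22) and Arhgap9 (-1.07). Those that so moved and no longer reached -1 included Gfra2 (-0.72), Sort1 (-0.71), Zfp979 (-0.58), Csprs (-0.57), Krt27 (-0.49) and Lrrc75b (-0.48).

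**Figure D5:**
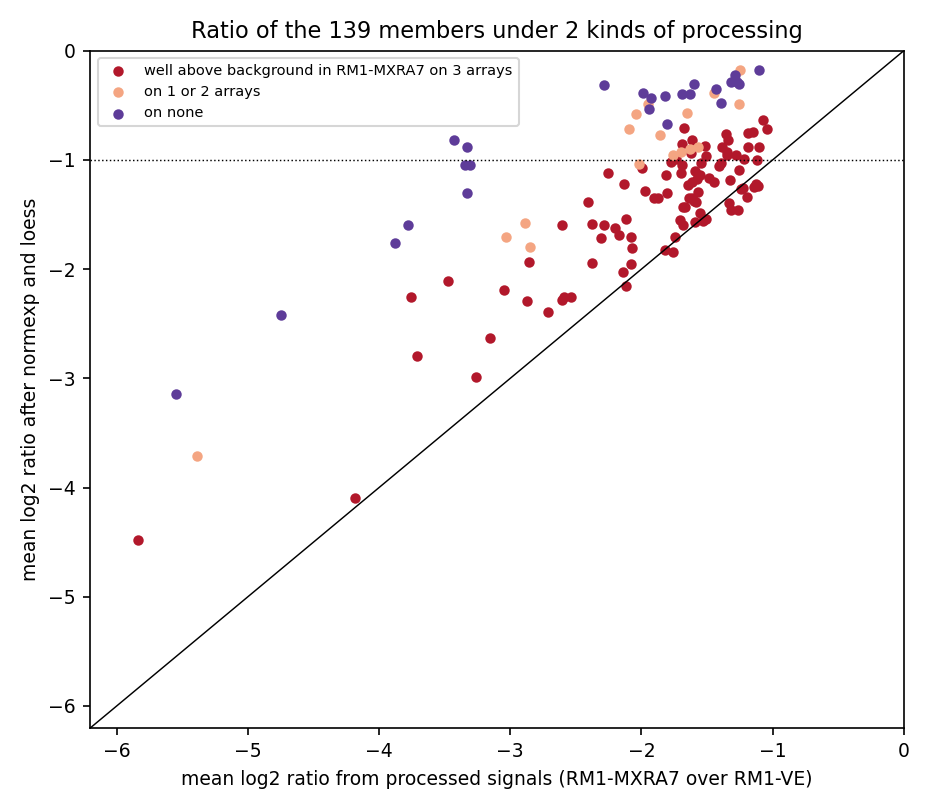
Mean log2 ratio of RM1-MXRA7 over RM1-VE for the 139 members after normexp and loess (vertical axis) against that from processed signals (horizontal axis), coloured by the number of arrays on which RM1-MXRA7 was well above background. The solid line marks equal values and the dotted line -1. Most points lie above the line. By class median, though not point by point, those above background on none of the arrays lie farthest from it, with a median of -0.44 after normexp and loess.

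The line's labelled type was checked against markers. The luminal keratins Krt8 and Krt18 and all 7 mesenchymal markers, Vim and Fn1 among them, were well above background in both lines on all arrays. The prostate genes Hoxb13, Pbsn, Psca and Tmprss2, the epithelial genes Cdh1 and Epcam and the basal keratin Krt5 were not above background in either line. Krt14, the other basal keratin, was above it in both, with 27.1, 24.4 and 30.2 in RM1-MXRA7 and 29.1, 33.5 and 31.9 in RM1-VE. The mesenchymal sums, which include the member Col1a1, ran from 76531 to 81781 in RM1-MXRA7 and from 58384 to 64865 in RM1-VE. Endothelial markers (3 of 4 above background in both lines on all arrays) had sums of 1282 to 1400.2 in RM1-MXRA7 and 1437 to 1479 in RM1-VE. Among them the endothelial cadherin Cdh5 read 44.7, 26.9 and 37.0 in RM1-MXRA7 and 72.1, 77.3 and 108 in RM1-VE (mean log2 ratio -1.25), and Syp was the neural marker (1 of 3) above background. The part of such differences in the members' ratios was not tested. In bulk RNA, fewer cells with a message and less of it per cell cannot be told apart.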

How the data were processed

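RNA from both lines was compared on 3 Agilent mouse 2-colour arrays, all on 1 slide with 1 scan date. The number of arrays limits the precision. The authors deposited spot intensity values from Agilent Feature Extraction 10.7.1.1, per the submitters' processing notes. The processed intensity used here is background-subtracted, detrended and dye-normalized, per the file headers. A linear ratio per probe, which the authors deposited in the series matrix, matched processed green divided by processed red to within 1% for 99.63% of values.

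Control spots (1377 of 44397) were left out, spots of a probe were averaged, and log2 ratios were computed from the authors' processed intensity. For other genes, limma 3.58.1 (lmFit, eBayes, Benjamini-Hochberg, threshold 0.05) was fitted in R 4.3.3 on 21805 probes whose green or red spots were all flagged well above background, with 3.68 prior and 2 residual degrees of freedom. The limma fit was also run on simulated independent log ratios without dye bias or an array surface. That run cannot show how either affects the calls. A gene was tested by its brightest probe. Names were updated to RefSeq symbols through the accession for 27508 probes, 122 of the 139 member probes among them. Named genes are Mxra7, the 12 lowest members, up to 8 per functional group, members of positional clusters and those nearest the threshold. For lists, other genes were taken from the 4 of smallest adjusted p in a list, and not all 4 are given. Member genes beyond these were added by name after their values were seen. Functional groups were assigned by hand, and members and lists were chosen with earlier results of these data known. Each array holds a numbered pair of the lines, so each ratio contains the pairing. Alternatives covered background correction, normalization, filters, thresholds, the series matrix, unpaired channels and arrays left out.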

Additional observations from a re-analysis of the deposited data

How the results depend on the processing

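The rule found 139 probes. It found 91 with a ratio of at most 0.4, 70 with signal over 3 times background, 81 after normexp and loess and 73 after removal of a surface over array row and column as well, with 76 and 73 of those among the 139. Without 1 array it found 187 to 202. Limma called 2614 probes lower and 2512 higher. It called 5041 and 5283 after normexp and loess, 1192 and 1251 with no filter on dim probes, and 1073 to 2004 and 951 to 1933 without 1 array, fewest without replicate 2. With the replicate block dropped, so that single channels were compared without the pairing, it called 489 lower and 293 higher. List genes outside the members numbered 381 lower and 403 higher, against 600 and 700 after normexp and loess, 96 and 102 with no filter, 71 and 54 with no replicate block, and 165 to 314 and 170 to 322 without 1 array, fewest without replicate 2. The brighter Mxra7 probe, -0.034 on processed signals, stood at 0.31 after normexp and loess and at 0.0093 with the surface removed. Of 79 named member genes none changed sign under the alternatives run. With an array left out, the series matrix ratio or single channels, this followed from the rule and is not a result. Of the 79, 65 moved by more than 1 SD after normexp and loess and 64 with the surface removed. The cause of these shifts was not tested. Few arrays, no dye swap and dim RM1-MXRA7 signal limit how firmly sizes can be read.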
